A study of Mus musculus with 6 samples.

Results

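Genes of glucose uptake, glycolysis and the routes that leave it were followed in cultured mouse cortical neurons as 40 members chosen by gene symbol, out of 54232 genes listed in each library. The study, on neuronal maturation on scaffolds that its title calls conductive and bioactive, sequenced RNA from wildtype cortical neurons of CD1, an outbred mouse stock, in 6 libraries. The groups were a control, named PDL in its library names, a PA group named IKVAV, after a short sequence of laminin, and a PA + PS2 group named IKVAV and PEDOT-S, the first part of which is a conducting polymer. Each group had 2 libraries, numbered repeat 1 and repeat 2. Every library, those of the control too, carries the treatment label peptide amphiphile, a self-assembling peptide with a lipid-like tail. The sources used here do not spell out PS2 and give no culture time, dose or age. Nor do they say that the repeats were separate cultures or animals, and p-values therefore describe only how far these samples spread.

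Glucose enters brain cells through facilitative transporters of the Slc2a family and is trapped by hexokinase. Phosphofructokinase commits it to glycolysis, and a chain of triose and pyruvate-forming enzymes then yields ATP, with pyruvate going either to lactate or, through the mitochondrial pyruvate carrier and pyruvate dehydrogenase, to the mitochondrion. Neurons are known for the transporter Slc2a3 (GLUT3), the hexokinase Hk1 and the enolase Eno2, whereas Slc2a1 (GLUT1) is the transporter of brain endothelium and astrocytes. A branch at glucose 6-phosphate, the pentose phosphate pathway, supplies NADPH.

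The libraries held 30714311 to 33923681 counts. Levels are counts per 1000000 scaled by TMM (CPM), so that 1 CPM stood for 30.8 to 33.6 counts, and the value of repeat 1 is given before that of repeat 2. The labelled cell type had its markers in every library: the summed level of 8 neuronal genes was 6330 to 6926 CPM. Markers of other cells were present at lower sums, with 8 astrocyte genes at 197 to 403 CPM, 5 oligodendrocyte precursor genes at 6.30 to 122 CPM and 5 endothelial genes at 4.67 to 10.2 CPM. In such bulk samples, fewer cells of a type and less RNA per cell cannot be told apart.

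The members together took 4203 to 4778 CPM of each library, and 39 of the 40 were high enough to be tested. The exception was Pdk4, a pyruvate dehydrogenase kinase, with 12 and 3 counts in the control libraries, 7 and 9 in those of PA, and 1 in each PA + PS2 library. The highest level per exonic length (CPM per kilobase of exon, or FPKM, mean of 6 libraries) was that of the aldolase Aldoa at 116. The pyruvate kinase Pkm followed at 93.8, the lactate dehydrogenase genes Ldha and Ldhb at 87.4 and 80.8, and the glyceraldehyde phosphate dehydrogenase Gapdh at 66.0. The lowest of the tested members were the hexokinase Hk2 at 1.00, the glycerol phosphate dehydrogenase Gpd1 at 1.33, the transporter Slc2a8 at 2.93, the kinase Pdk2 at 3.22 and Slc2a1 at 3.28. Most members were even across the study: the highest library was under 1.5 times the lowest for 33 of 39 tested members. The ratio reached 2.91 for the phosphofructokinase Pfkp, 2.42 for Gpd1 and 2.03 for Hk2.

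**Figure D1:**
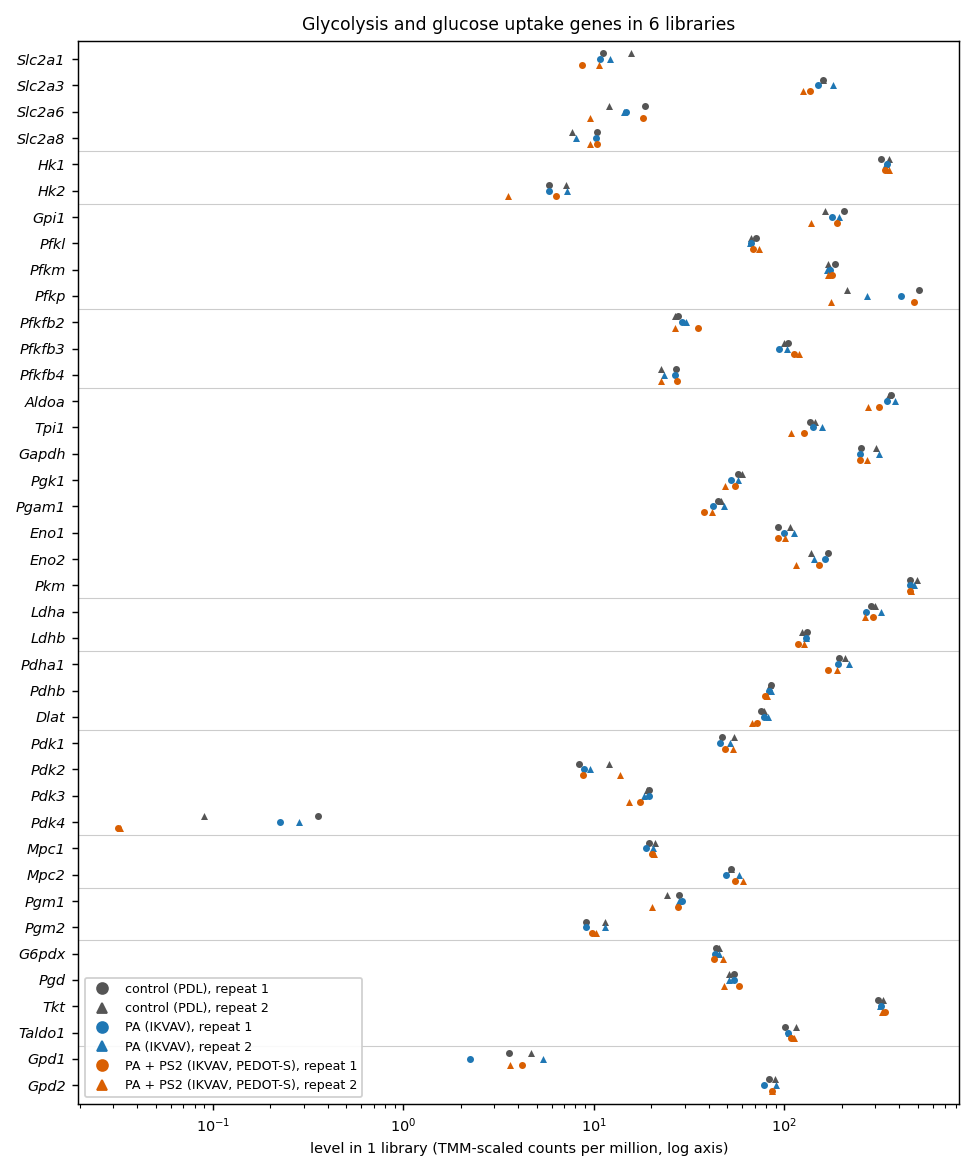
Level of each of the 40 genes in each of the 6 libraries, in CPM on a log axis, ordered by role from uptake at the top to the glycerol phosphate shuttle at the bottom; colours are the 3 groups, circles repeat 1 and triangles repeat 2. Most genes keep within 1.5-fold over all libraries, whereas Pfkp lies at 411 to 511 in the repeat 1 libraries and at 175.5 to 272 in those of repeat 2.

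With PA alone the glycolytic genes lay close to the control. None of the 39 tested members passed edgeR's quasi-likelihood test at an adjusted p of 0.05 (background 0% of 17299 genes), and 0 had an unadjusted p under 0.05 (background 0.798%). The repeat number as a block called 0 as well, with 0 at an unadjusted p under 0.05 (background 1.87%), and so did DESeq2 and limma-voom. Log2 fold changes ran from -0.23 for Slc2a1 to 0.13 for Pfkfb2, with a median of -0.00 beside 0.01 over all genes tested, and 21 of 39 lay below 0 (background 47.6%). The 95% interval of the fold change lay inside a 1.5-fold change in either direction for 33 of 39 members and inside 2-fold for 38, with Pfkp the exception. These bounds do not show that members did not differ.

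Few members had PA and control libraries that did not overlap: 1 was higher (background 12.1%) and 2 were lower (background 9.69%). The higher one was Pfkfb2, an enzyme that makes and removes the phosphofructokinase activator fructose 2,6-bisphosphate, at 27.6 and 26.6 CPM in the control and 29.0 and 30.5 CPM in PA (log2 fold change 0.13, edgeR adjusted p = 1.00). The lower ones were the phosphoglycerate kinase Pgk1, at 57.4 and 59.7 CPM in the control and 52.4 and 57.0 CPM in PA, and the liver-type phosphofructokinase Pfkl, at 70.8 and 66.6 against 66.5 and 65.6 CPM. Their log2 fold changes were -0.10 and -0.06 (edgeR adjusted p = 1.00 for both).

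With PA + PS2 no member passed either. Against the control and against PA, edgeR called 0 of 39 members (background 0% for each), DESeq2 called 0 (background 0.751% and 1.16%), and limma-voom called 0. At an unadjusted p under 0.05 edgeR had 4 members against the control (background 6.82%) and 5 against PA (background 7.6%). With the repeat number as a block edgeR still called 0 members (background 0.676% and 1.62%), with 8 and 7 at an unadjusted p under 0.05 (background 11.9% and 12.2%). The 2 comparisons share the PA + PS2 libraries, so their values are given side by side and not as separate support.

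More members had a fold change below 0 than above it. Against the control the median log2 fold change was -0.06 (all genes 0.01) with 25 of 39 below 0 (all genes 48.1%), and against PA it was -0.06 (all genes 0.00) with 22 of 39 below 0 (all genes 48.9%). The median was -0.02 within repeat 1 and -0.11 within repeat 2 against the control, and 0.03 and -0.17 against PA. The library PA + PS2 repeat 2 was the lowest of the 6 for 16 of 39 members (24.2% of all genes tested were lowest there). Groups did not overlap for 10 members that were lower and 2 that were higher than the control (background 17.1% and 16.6%), and for 11 lower and 4 higher than PA (background 18.4% and 16.7%).

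**Figure D2:**
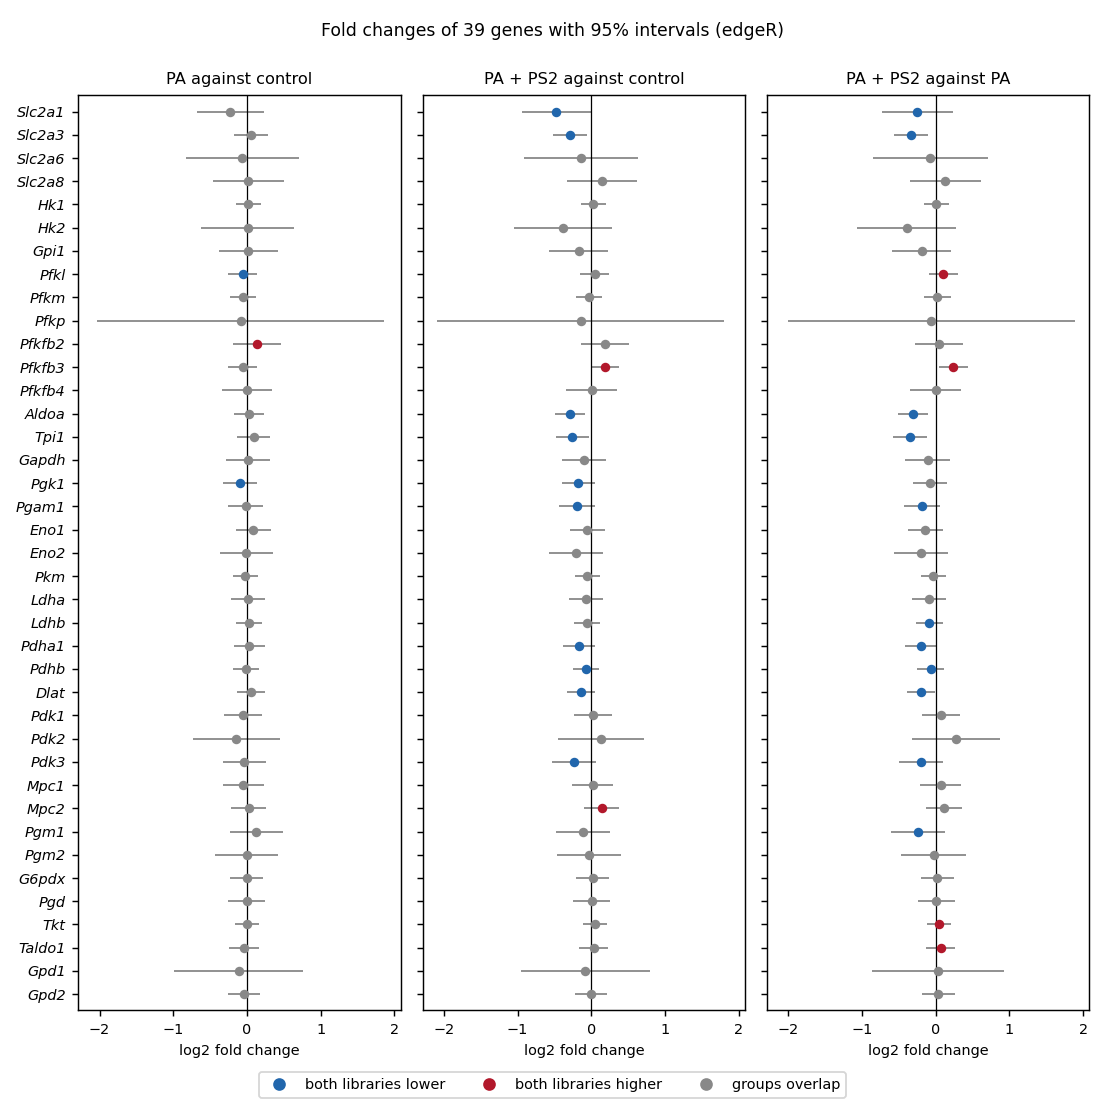
Log2 fold change (points) with its 95% interval (lines) from edgeR for the 39 tested genes in the 3 comparisons; blue points have both libraries of the first group below both of the second, red points both above, grey points overlap. No gene passed an adjusted p of 0.05, the longest intervals belong to Pfkp, and the lower blue points in both PA + PS2 panels include Slc2a1, Slc2a3, Aldoa and Tpi1.

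Among the transporters, both principal ones were lower in PA + PS2 without passing. Slc2a3, the neuronal transporter, was at 159 and 159.8 CPM in the control, 149.9 and 180.5 CPM in PA, and 137 and 125.5 CPM in PA + PS2. Both PA + PS2 libraries lay below the other 4. The log2 fold change was -0.28 against the control (95% interval -0.51 to -0.05, edgeR adjusted p = 0.682) and -0.33 against PA (-0.57 to -0.10, edgeR adjusted p = 0.486). With the block the adjusted p was 0.196 and 0.0993.

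Slc2a1, the transporter of endothelium and astrocytes, was at 11.2 and 15.6 CPM in the control, 10.8 and 12.1 CPM in PA, and 8.66 and 10.7 CPM in PA + PS2. Here too the PA + PS2 libraries were the lowest 2, though PA + PS2 repeat 2 and PA repeat 1 nearly met. Slc2a1 had the lowest log2 fold change of the 39 tested members against the control, -0.47 (95% interval -0.94 to -0.0027, edgeR adjusted p = 0.730), and stood at -0.25 against PA (edgeR adjusted p = 0.909). Without control repeat 2 the value against the control was -0.21. The endothelial marker sum was 8.93 and 7.35 CPM in the control, 10.2 and 6.25 CPM in PA, and 4.84 and 4.67 CPM in PA + PS2, and the astrocyte sum was 207.5 and 277, 225 and 403, and 197 and 239 CPM. Of the 5 endothelial genes 3 were tested, and 0 passed in edgeR. The part of these cells in the level of Slc2a1 was not tested. Slc2a6 and Slc2a8, transporters of intracellular membranes, were at 9.48 to 18.6 CPM and 7.68 to 10.4 CPM with overlapping groups in all 3 comparisons.

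At the hexokinase step the neuronal gene was flat. Hk1 was at 323 and 353.5 CPM in the control, 345 and 340.5 CPM in PA, and 337 and 353 CPM in PA + PS2, with log2 fold changes of 0.02 to 0.03 against the control. Hk2, the inducible hexokinase, was at 5.81 and 7.11 CPM, 5.81 and 7.19 CPM, and 6.34 and 3.54 CPM. Only the second PA + PS2 library was low, the groups overlapped, and the log2 fold change of -0.38 against the control had a 95% interval of -1.05 to 0.28.

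The glucose phosphate isomerase Gpi1 and the phosphofructokinase genes, for the committed step of glycolysis, were not called in PA + PS2. Gpi1 was at 204.5 and 163 CPM in the control, 177 and 194 CPM in PA, and 189 and 138 CPM in PA + PS2. Pfkm, the muscle-type subunit, was at 185 and 169 CPM, 173 and 168 CPM, and 177 and 169.6 CPM. Both genes overlapped between all groups. Pfkl was at 68.7 and 73.1 CPM in PA + PS2, above both PA libraries (log2 fold change 0.10, edgeR adjusted p = 0.909). Pfkp, the platelet-type subunit that is abundant in brain, was at 511 and 213 CPM in the control, 411 and 272 CPM in PA, and 479 and 175.5 CPM in PA + PS2, a difference between repeats that is described further on.

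Pfkfb3, whose product mainly makes fructose 2,6-bisphosphate, had the lowest p among members that were higher in PA + PS2, and did not pass. It was at 104.5 and 99.1 CPM in the control, 93.1 and 103 CPM in PA, and 113 and 119 CPM in PA + PS2. Both PA + PS2 libraries lay above the other 4. The log2 fold change was 0.19 against the control (95% interval -0.01 to 0.38, edgeR adjusted p = 0.754) and 0.24 against PA (0.05 to 0.44, edgeR adjusted p = 0.548). With the block the adjusted p was 0.378 and 0.186, and without control repeat 2 the blocked value against the control was 0.09. Pfkfb2 overlapped in these comparisons, as did Pfkfb4, another enzyme of the same family, at 22.5 to 27.3 CPM in all 6 libraries.

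In lower glycolysis, from aldolase to pyruvate kinase, the fold changes of all 8 members lay below 0 against both the control and PA, at -0.28 to -0.05 and -0.35 to -0.03 on the log2 scale, and 0 of 8 passed. Over all genes 48.1% and 48.9% lay below 0. Within repeat 1 the direction did not hold for every gene. There PA + PS2 was above the control for Pkm (457.9 and 455.3 CPM). It was above PA for Pgk1 (54.95 and 52.44 CPM) and Gapdh (249.1 and 248.4 CPM), and below for the rest. Both PA + PS2 libraries lay below both others for 4 of the 8 against the control (background 17.1%) and 3 against PA (background 18.4%). Aldoa, which splits fructose 1,6-bisphosphate, was at 361 and 352.5 CPM in the control, 345 and 379.7 CPM in PA, and 312 and 273 CPM in PA + PS2. The triose phosphate isomerase Tpi1 was at 136 and 145 CPM, 141 and 158 CPM, and 126 and 109 CPM. For both genes the PA + PS2 libraries lay below the other 4. The log2 fold change of Aldoa was -0.28 against the control (edgeR adjusted p = 0.606, with the block 0.142) and -0.31 against PA (0.468, with the block 0.0864). That of Tpi1 was -0.26 (edgeR adjusted p = 0.688, with the block 0.255) and -0.35 (0.468, with the block 0.0879). A second Ensembl entry with the symbol Aldoa held 1.51 to 3.01 CPM and was left out.

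Aldoa, Tpi1 and Slc2a3 crossed the threshold in some fits with the block that left out 1 library. Against the control, Slc2a3 and Aldoa fell without PA repeat 1 (edgeR adjusted p = 0.0401 and 0.02995) and without PA repeat 2 (0.0307 and 0.0242), where 2.72% and 3.07% of all genes were called. Tpi1 and Aldoa fell without PA + PS2 repeat 1 (0.0313 and 0.0355, background 2.84%). Against PA, Slc2a3, Pfkp, Tpi1, Aldoa and Gpi1 fell without PA repeat 1 (edgeR adjusted p = 0.00552, 0.00145, 0.0212, 0.0111 and 0.00816, background 3.39%). Slc2a3, Tpi1 and Aldoa fell without PA + PS2 repeat 1 (0.0419, 0.0136 and 0.0268, background 3.31%). In the remaining fits of this kind no member was called. Without PA + PS2 repeat 2, the log2 fold changes of Slc2a3, Aldoa and Tpi1 were -0.16, -0.17 and -0.09 against the control (edgeR adjusted p = 0.874, 0.868 and 0.912) and -0.20, -0.19 and -0.18 against PA (0.819, 0.783 and 0.792). Without PA repeat 2 they were -0.16, -0.18 and -0.23 against PA (edgeR adjusted p = 0.798, 0.726 and 0.591). Such a fit leaves one group with 1 library, which is then assumed to vary like the others. It also has fewer residual degrees of freedom than the 2 of the full blocked fit. Against the control, leaving out either PA library gave nearly the same fit, resting on the control and PA + PS2 libraries. The log2 fold changes were -0.285 and -0.289 for Slc2a3 and -0.288 and -0.292 for Aldoa. These 2 fits are therefore not separate support.

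The remaining enzymes of this stretch were closer together. Pgam1, a phosphoglycerate mutase, was at 44.8 and 46.5 CPM in the control, 42.1 and 48.0 CPM in PA, and 37.8 and 41.6 CPM in PA + PS2, which lay below both (log2 fold change -0.20 against the control, edgeR adjusted p = 0.807). Pgk1 was at 54.9 and 48.7 CPM in PA + PS2, below the control and overlapping PA. Gapdh was at 252 and 303 CPM in the control, 248 and 312.5 CPM in PA, and 249 and 271 CPM in PA + PS2. Gapdh overlapped between groups, with the repeat 2 library higher in each. Pkm stayed at 455 to 499 CPM, and the enolases Eno1 and Eno2 overlapped in every comparison. Sharing of 50-base exon words with other annotated genes limits some of these values. The shared part was 53.9% in Pgk1, 36.2% in Pgam1, 26.0% in Eno1, 25.8% in Pkm and 25.1% in Gapdh. The partner sharing most was at 0 to 0.16 CPM for Pgk1, 0.03 to 0.39 CPM for Pgam1 and 0 to 0.06 CPM for Gapdh. For Pkm it was Gm49759 (12.1%), which overlaps 767 of its 5001 exonic bases on the same strand. How reads that fit several genes were counted is not given, so they could have been split or left uncounted. Beyond this stretch the shares reached 21.0% for Ldhb and 26.3% for Mpc1, with 15.3% from 4930506C21Rik on the opposite strand. With strandedness not given, genes on the opposite strand could also touch the values of several members. They overlap Mpc1 (480 of 2082 exonic bases), Pdha1 (603 of 3734) and G6pdx (418 of 3080). They also overlap Pgm1 (398 of 2921), Gpd1 (384 of 2961) and Gpi1 (741 of 6452). Ikbkg, the partner of G6pdx, was at 34.75 to 42.15 CPM, whereas Gm26762, that of Gpi1, was at 0 to 0.19 CPM. On its own strand, Gm29427 overlaps 1262 of the 7254 exonic bases of Pfkfb2.

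Beyond pyruvate, the lactate dehydrogenase genes differed little and the pyruvate dehydrogenase genes had fold changes below 0 in PA + PS2. Ldha, whose subunit favours lactate formation, was at 285 and 300 CPM in the control, 269.5 and 323 CPM in PA, and 293 and 264 CPM in PA + PS2. Ldhb, whose subunit favours lactate use, was at 132 and 124 CPM, 130.3 and 129.7 CPM, and 118 and 127 CPM, and both genes overlapped with the control, while Ldhb lay below PA. All 3 pyruvate dehydrogenase complex members had both PA + PS2 libraries below the other 4 (background for lower groups 17.1% against the control and 18.4% against PA), and none passed. Pdha1, the catalytic alpha subunit, was at 194 and 209 CPM in the control, 192 and 219.6 CPM in PA, and 170 and 188 CPM in PA + PS2, a log2 fold change of -0.17 and -0.20 (edgeR adjusted p = 0.831 and 0.688). Dlat, the acetyltransferase subunit, had -0.20 against PA (edgeR adjusted p = 0.637), and Pdhb, the beta subunit, -0.07.

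Of the kinases that switch this complex off, Pdk3 was at 19.6 and 19.0 CPM in the control, 19.4 and 18.3 CPM in PA, and 17.4 and 15.3 CPM in PA + PS2. The PA + PS2 libraries lay below the other 4 (log2 fold change -0.24 and -0.20, edgeR adjusted p = 0.823 and 0.835). Pdk1, at 45.7 to 54.3 CPM, and Pdk2, at 8.37 to 13.6 CPM, overlapped between groups. Mpc2, a subunit of the mitochondrial pyruvate carrier, was at 52.2 and 52.7 CPM in the control, 49.3 and 57.4 CPM in PA, and 55.0 and 60.6 CPM in PA + PS2. It lay above the control and overlapped PA (log2 fold change 0.14 against the control, edgeR adjusted p = 0.910). Its partner Mpc1 overlapped throughout.

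The side routes had small fold changes. The 4 pentose phosphate members, G6pdx and Pgd of the oxidative arm and Tkt and Taldo1 of the other, had log2 fold changes of 0.00 to 0.05 against the control and 0.01 to 0.07 against PA. Tkt, a transketolase, was at 310.1 and 330.5 CPM in the control, 323 and 319 CPM in PA, and 336 and 327 CPM in PA + PS2. The transaldolase Taldo1 was at 100.5 and 115 CPM, 104.9 and 105.3 CPM, and 108 and 112 CPM. Both were above PA without overlap and met the control (edgeR adjusted p against PA = 0.966 and 0.958). The phosphoglucomutase Pgm1, at the junction with glycogen, was at 27.9 and 24.1 CPM in the control, 28.9 and 27.9 CPM in PA, and 27.7 and 20.3 CPM in PA + PS2 (log2 fold change against PA -0.24, edgeR adjusted p = 0.844). Pgm2 and both glycerol phosphate shuttle genes, the cytosolic Gpd1 and the mitochondrial Gpd2, overlapped between groups.

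The bounds on these differences were narrow for most members. Against the control the 95% interval lay inside a 1.5-fold change for 32 of 39 members and inside 2-fold for 37, and against PA for 30 and 37. The genes outside 2-fold were Hk2 and Pfkp in both comparisons. With the block, 35 members in each comparison lay inside 1.5-fold and 39 inside 2-fold.

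The balance of neuronal and other isoforms was compared as a log2 ratio of levels per exonic length in each library, over 6 gene pairs. No pair separated the groups in any of the 3 comparisons, and the adjusted exact permutation p over 18 tests was 1.00 for each, where 0.333 is the smallest unadjusted p that 2 libraries against 2 can give. Slc2a3 made up 83.2 to 88.4% of the Slc2a3 and Slc2a1 level per length, Hk1 97.1 to 98.6% of both hexokinases, and Pfkm 82.3 to 83.9% of Pfkm and Pfkl. Eno2 made up 56.6 to 67.5% of the enolase pair and Ldhb 45.8 to 50.5% of the lactate dehydrogenase pair. The largest gap between group means was in Hk1/Hk2, at 5.67 ± 0.64 (SD, n = 2) in PA + PS2 and 5.20 ± 0.12 in the control, and it came from the second PA + PS2 library at 6.12. Eno1 shares words with Eno1b, an annotated copy at 17.4 to 23.2 CPM, so its side of the pair is uncertain.

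**Figure D3:**
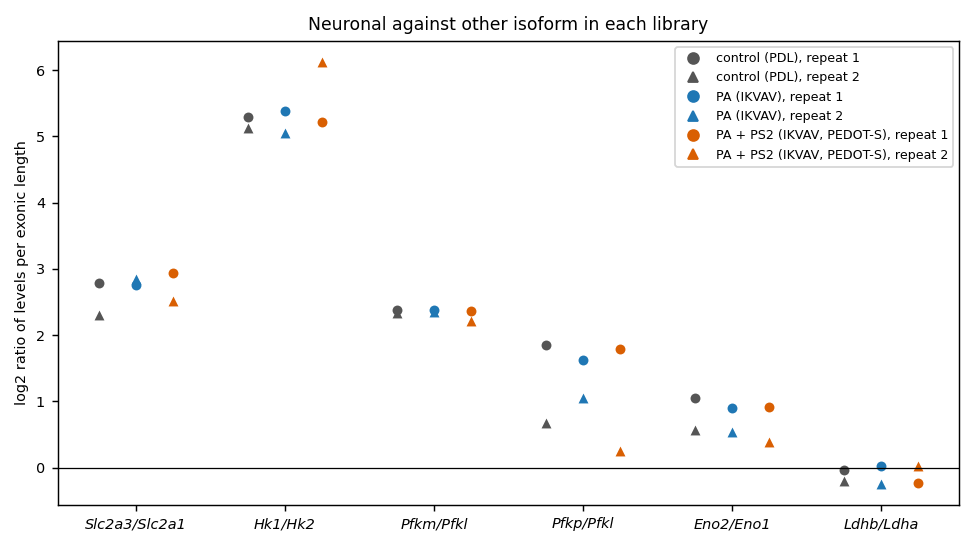
Log2 ratio of levels per exonic length for 6 pairs, the neuronal isoform over the other, in each library; colours are the groups, circles repeat 1 and triangles repeat 2. Groups overlap in every pair, Hk1/Hk2 is highest at 5.05 to 6.12, Ldhb/Ldha lies near 0, and repeat 2 is below repeat 1 in every group for Pfkp/Pfkl and Eno2/Eno1.

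For some members the repeats lay further apart than the groups. This comparison of repeat 2 with repeat 1 over the 3 groups was added after the data were seen. In edgeR with the group in the model, 2 of 39 members passed (background 5.21%): Eno2 fell (background for falls 3.05%) and Gapdh rose (for rises 2.16%). Eno2, the neuronal enolase, was at 169, 162.5 and 152 CPM in repeat 1 of control, PA and PA + PS2, and at 138, 143.5 and 114.5 CPM in repeat 2. No repeat 2 library reached a repeat 1 library. The log2 fold change was -0.29 (SE 0.06, edgeR adjusted p = 0.0192). Gapdh lay at 271 to 312.5 CPM in repeat 2, above its 248 to 252 CPM in repeat 1, again without overlap (log2 fold change 0.24, SE 0.06, edgeR adjusted p = 0.0361).

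Pfkp had the widest gap, with a log2 fold change of -1.10 between repeats. It did not pass in edgeR (adjusted p = 0.113) and passed in DESeq2 with the block (adjusted p = 0.0036), where 4.35% of all genes were called. The ratio of repeat 2 to repeat 1 was -1.26 in the control, -0.60 in PA and -1.45 in PA + PS2 on the log2 scale. The lysosomal transporter Slc2a6 (-0.53, edgeR adjusted p = 0.0745) and the kinase Pdk2 (0.43, edgeR adjusted p = 0.0995) did not pass. Repeats did not overlap for 9 members that were higher and 7 that were lower in repeat 2 (background 10.4% and 12.4%). When 1 library was left out, the remaining library of its group was fitted by its own group term. Leaving out either library of a group thus gave nearly the same fit, on the other groups alone, and not separate support. Without PA repeat 1 and without PA repeat 2, the log2 fold change was -1.355 and -1.351 for Pfkp and -0.349 and -0.345 for Eno2. Without PA repeat 1, and likewise without PA repeat 2, 5 members passed (background 5.89% and 6.38%), and Eno2, Pfkp, Slc2a6, Gpi1 and Pdk2 were called in both. With either control library left out no member passed. Without PA + PS2 repeat 1 or repeat 2, Gapdh alone passed (background 2.88% and 2.01%).

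**Figure D4:**
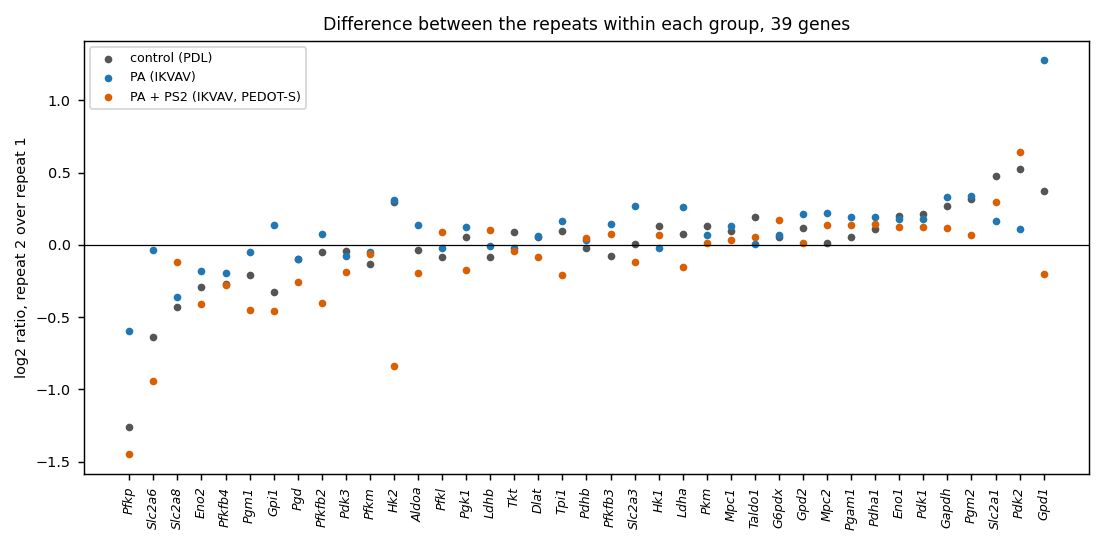
Log2 ratio of repeat 2 over repeat 1 in each group for the 39 tested genes, ordered by the mean of the 3 groups. Pfkp is lowest in the mean, at -1.26, -0.60 and -1.45, Eno2 is below 0 and Gapdh above 0 in all 3 groups, and Hk2 has 2 groups near 0.3 and PA + PS2 at -0.84.

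The isoform ratios were set against the repeat number in the same way. Pfkp/Pfkl was 1.76 ± 0.12 (SD, n = 3) in repeat 1 and 0.66 ± 0.39 in repeat 2, and Eno2/Eno1 was 0.96 ± 0.09 and 0.50 ± 0.10. Pfkm/Pfkl was also lower in every repeat 2 library, by 0.08. Each of these 3 pairs had an exact permutation p = 0.1, the smallest that 3 against 3 can give, and an adjusted p of 0.2 over the 6 pairs. Markers of other cells moved with the repeats as well. The astrocyte sum was higher in repeat 2 in each group, and 6 of its 8 genes (Gfap, Aqp4, Slc1a2, Aldh1l1, Gja1 and Aldoc) rose (background for rises 2.16%). The sum of 8 cycling or progenitor genes was 255 and 401 CPM in the control, 291 and 442 CPM in PA, and 191 and 202 CPM in PA + PS2. All 8 had log2 fold changes above 0 between repeats, and 3 of them (Cdk1, Nes and Pax6) rose. Of 5 mature oligodendrocyte genes, 1 (Mog) fell in repeat 2 (background for falls 3.05%). The other 4 had log2 fold changes above 0 without passing, and the median of the 5 was 0.57. The part of these cells in the repeat differences of the members was not tested. Pitrm1, a gene on the opposite strand, overlaps 748 of the 13401 exonic bases of Pfkp, and since strandedness is not given, its reads (52.3 to 63.5 CPM) could be told apart from those of Pfkp only outside that overlap.

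Marker sums of several other cell types lay apart in PA + PS2, while edgeR without the block called 0 of their genes. The precursor sum was 7.90 and 6.30 CPM in PA + PS2 and 23.7 to 122 CPM elsewhere, and that of the cycling or progenitor genes was lower than elsewhere in both PA + PS2 libraries. The sum of the mature oligodendrocyte genes was 50.4 and 73.2 CPM in PA + PS2 and 29.1 to 41.3 CPM elsewhere. That of 7 genes of vessel wall cells and fibroblasts was 86.6 and 37.4 CPM in PA + PS2 and 92.4 to 156.5 CPM elsewhere. All 7 had log2 fold changes below 0 against the control, and with the block 0 of them passed there. With the block, 1 of 5 precursor genes (Cspg4) and 2 of 8 progenitor genes (Cdk1 and Nes) fell against the control in edgeR (background for falls 0.538%). There 3 of 5 oligodendrocyte genes (Mag, Mobp and Cldn11) rose, where 24 of 17299 genes rose, and 0 of 8 neuronal genes passed. Against PA with the block, 1 of 5 precursor and 4 of 8 progenitor genes fell (background for falls 1.39%). So did 2 of the 7 vessel wall and fibroblast genes. In that comparison 2 of 5 oligodendrocyte genes rose, where 39 of 17299 genes rose. The neuronal sum was 6845 CPM in PA + PS2 repeat 1 and 6330 CPM in repeat 2, the latter the lowest of the 6 libraries. The part of these cells in the lower values of the members was not tested.

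Around the members, 69 other genes were listed, 62 of which were tested. Most handle glucose, and 8 belong to the hypoxia-inducible factor (HIF) system and 12 are known HIF targets outside glycolysis. EdgeR called 0 of 62 in each comparison, and the median log2 fold change was 0.03 for PA against control, -0.05 for PA + PS2 against control and -0.07 for PA + PS2 against PA. With the block 0, 1 and 2 were called, all downwards (background for falls 0.538% and 1.39% in the PA + PS2 comparisons). The call against the control was Epas1, of the HIF system, and those against PA were Epas1 and Aldoc. Epas1, which encodes HIF-2 alpha and is known from endothelium and glia, was at 7.12 and 8.60 CPM in the control, 9.71 and 5.27 CPM in PA, and 1.69 and 1.72 CPM in PA + PS2. It fell with the block against the control (log2 fold change -2.21, edgeR adjusted p = 0.0174) and against PA (-2.12, edgeR adjusted p = 0.00979), and did not pass without it (0.410 and 0.360). Hif1a, which encodes the alpha subunit of HIF-1, an activator of glycolytic genes, was at 97.1 to 126.5 CPM and did not pass.

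Aldoc, the aldolase of astrocytes, was at 2.80 and 7.86 CPM in the control, 4.13 and 20.2 CPM in PA, and 1.66 and 4.97 CPM in PA + PS2. Its groups overlapped, and within each repeat the PA + PS2 library was the lowest. With the block it fell against PA (log2 fold change -1.83, edgeR adjusted p = 0.00407). Of the 8 astrocyte genes, which include Aldoc, 4 fell in the same comparison, the others being Aqp4, Aldh1l1 and Gja1 (background for falls 1.39%). The other 4 did not pass, and S100b, at 0.26 and 0.06 CPM in PA and 0.57 and 0.65 CPM in PA + PS2, was higher without overlap. Of the 8 glycogen genes, 1 had a log2 fold change below 0 for PA against control (median 0.07, all genes 47.6%). For PA + PS2 against the control 6 lay below 0 (median -0.08, all genes 48.1%). Against PA all 8 lay below 0 (all genes 48.9%) with a median of -0.16, and 0 passed. The lowest p there was that of the branching enzyme Gbe1, at 11.1 and 12.2 CPM in PA and 9.62 and 6.75 CPM in PA + PS2 (log2 fold change -0.51, edgeR adjusted p = 0.587). Among the malate-aspartate shuttle genes, which carry reducing equivalents from glycolysis into the mitochondrion, the lowest p was that of Mdh1, at 344.5 and 357 CPM in the control, 352 and 368 CPM in PA, and 316 and 295 CPM in PA + PS2 (log2 fold change -0.20 and -0.24, edgeR adjusted p = 0.688 and 0.492).

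Promoters of members that lay apart between groups or repeats are printed to show how they differ in a letter pattern linked to hypoxia-inducible factors. The pattern was ACGTG or GCGTG on either strand, the core of the hypoxia response element, in the 300 bases from 250 before to 50 after a RefSeq gene start. The palindrome CACGTG counts as 2 matches. Capitals mark the matches, and where RefSeq lists several starts the one with the most matches is shown. Aldoa and Tpi1 were lower and Pfkfb3 higher in PA + PS2 without passing, and Pfkp and Eno2 were lower in repeat 2.
Aldoa promoter (GRCm38.p6, chr7:126799129-126799428, minus strand): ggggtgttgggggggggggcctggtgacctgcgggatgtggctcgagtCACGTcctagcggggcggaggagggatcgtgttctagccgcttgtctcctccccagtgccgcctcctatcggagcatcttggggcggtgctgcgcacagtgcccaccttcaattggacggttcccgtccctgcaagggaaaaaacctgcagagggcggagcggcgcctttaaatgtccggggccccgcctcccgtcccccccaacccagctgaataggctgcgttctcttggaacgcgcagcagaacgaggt
Tpi1 promoter (GRCm38.p6, chr6:124814109-124814408, minus strand): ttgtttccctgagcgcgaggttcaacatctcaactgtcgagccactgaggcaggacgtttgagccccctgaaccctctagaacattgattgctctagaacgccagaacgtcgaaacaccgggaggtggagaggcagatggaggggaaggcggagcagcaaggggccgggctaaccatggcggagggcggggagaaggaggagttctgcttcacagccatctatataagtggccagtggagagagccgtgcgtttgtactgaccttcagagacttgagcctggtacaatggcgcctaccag
Pfkfb3 promoter (GRCm38.p6, chr2:11502041-11502340, minus strand): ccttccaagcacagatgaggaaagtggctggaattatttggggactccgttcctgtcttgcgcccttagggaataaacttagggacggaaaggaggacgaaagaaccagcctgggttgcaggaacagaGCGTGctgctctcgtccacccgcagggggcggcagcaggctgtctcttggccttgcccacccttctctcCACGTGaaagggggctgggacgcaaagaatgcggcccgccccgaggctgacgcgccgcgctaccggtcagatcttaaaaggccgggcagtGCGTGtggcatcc
Pfkp promoter (GRCm38.p6, chr13:6648722-6649021, minus strand): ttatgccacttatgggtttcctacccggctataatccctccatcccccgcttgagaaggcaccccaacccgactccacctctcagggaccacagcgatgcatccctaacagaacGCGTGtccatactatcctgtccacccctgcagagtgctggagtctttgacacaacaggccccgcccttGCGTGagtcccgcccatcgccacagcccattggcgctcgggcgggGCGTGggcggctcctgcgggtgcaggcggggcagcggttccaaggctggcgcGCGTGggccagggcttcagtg
Eno2 promoter (GRCm38.p6, chr6:124769624-124769923, minus strand): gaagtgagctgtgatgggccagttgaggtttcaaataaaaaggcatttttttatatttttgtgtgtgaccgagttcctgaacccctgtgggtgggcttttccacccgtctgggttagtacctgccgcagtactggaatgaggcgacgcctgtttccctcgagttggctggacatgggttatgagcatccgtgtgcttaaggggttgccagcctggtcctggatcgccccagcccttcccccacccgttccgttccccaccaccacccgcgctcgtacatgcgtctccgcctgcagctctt

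Aldoa held 1 match, Pfkfb3 4 and Pfkp 4, and Tpi1 and Eno2 held 0. Of the 40 members 38 had a promoter in the RefSeq table (GRCm38.p6), with 56 promoters between them. The pattern was in 76.8% of those 56 and in 43.8% of all 32851 promoters. Taken per gene, as in the printed promoters, 34 of the 38 members had it (89.5%), so 0 matches was unusual among them. No such share was taken over all genes. Member promoters also held more G and C, with a median of 61.0% beside 52.7%, and a median of 19 CG pairs beside 7. The part of base composition in the difference was not tested. A match describes letters and not a site in use.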

How the data were processed

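The authors deposited raw counts per Ensembl gene, 1 library per file, per the file headers and whole-number values. Named in the submitters' processing notes are STAR 2.7.5, HTSeq 2.0.2, cutadapt 4.2, DESeq2 1.14.1 and build mm10, with no roles or settings. Strandedness was not given in the sources used here. The members and lists were chosen with earlier results of these data known. A gene of the mature oligodendrocyte list is not reported here. Genes kept by filterByExpr (17299) went into edgeR 4.0.16 under R 4.3.3 (scaling by TMM, robust quasi-likelihood F test, 1 model over 6 libraries, 3 residual degrees of freedom), with Benjamini-Hochberg adjustment over all of them at 0.05. The steps were tested on simulated data with 200 changed genes. Alternatives were other scalings and filters, DESeq2 1.42.0, limma-voom 3.58.1, the legacy test, the 2 groups alone, each library left out, and the repeat number as a block (2 residual degrees of freedom). Deviations of same-numbered libraries correlated at 0.35, 0.36 and 0.21 over the 3 pairs of groups, so the numbers were taken to pair; this comes from the data, as the labels name no shared litter, batch or day. The repeats of each group were not duplicates, with a chi-square of 16.1 to 23.4 per degree of freedom. FPKM used the union of exons in GENCODE M21 (GRCm38). Genes given for every library were those called, the 6 highest and 6 lowest per comparison with non-overlapping groups and a mean of at least 5 CPM, and the isoform pairs; others were chosen after their values were seen. Isoform ratios were tested with two-sided exact permutation tests. Pgm1 and Pgm2, which carry each other's older symbols, were matched by Ensembl identifier.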

Additional observations from a re-analysis of the deposited data

How the results depend on the processing

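The members called stayed at 0 in all 3 comparisons under RLE size factors, library totals, no filter, a minimum of 50 counts in 2 libraries, DESeq2, limma-voom, the 2 groups alone, the legacy test and the replicate block. The exceptions were fits with the block that left out 1 library, which called 0 to 2 members for PA + PS2 against control and 0 to 5 against PA. The replicate block changed no other call of a member. The median of the members moved to -0.065 without PA repeat 2 for PA against control, and for PA + PS2 against control to -0.13 without PA + PS2 repeat 1 and -0.0052 without PA + PS2 repeat 2, all with the block. For PA + PS2 against PA the blocked median was -0.12 without PA repeat 1 and -0.16 without PA + PS2 repeat 1, and it turned to 0.013 without PA repeat 2 and 0.0098 without PA + PS2 repeat 2. Pairs with the same sign within both repeats numbered 1, 4 and 1 of 6 for PA against control, PA + PS2 against control and PA + PS2 against PA. A same sign is easier to reach than groups that do not overlap, so these counts cannot be set against those of the main rule. With 1 library left out, 2 to 4, 2 to 5 and 2 to 5 pairs did not overlap, as 1 library against 2 separates more easily. Between repeats, 2 members became 1 with no filter, and DESeq2 with the block called 1 rise and 2 falls, Pfkp among the falls. The fits between repeats with 1 library left out are given above. Members at low levels, such as Hk2, Gpd1 and Slc2a1, had wide intervals. The longest belonged to Pfkp, which was at 175.5 to 511 CPM and lay far apart between repeats. With 2 libraries a group small changes could not be told from the spread.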
